A study of Mus musculus with 16 samples.

Results

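The CD11c-eYFP+ cells of the ischemic hemisphere were set against the microglia of the same hemisphere, gene by gene. All 4 libraries of CD11c-eYFP+ cells from ischemic brain and all 4 libraries of CX3CR1+ microglia from the ischemic ipsilateral hemisphere were used, 8 of the 16 libraries of the series. The control microglia and the splenic CD11c cells stood on neither side of the differences given here. They served in the low-count filter, the scaling factors and the shared estimate of gene-wise spread. Some scarce genes named below, such as Ly6d, Clec4g and Prf1, were not tested when only the 8 libraries were used. The differences given below for Ccr3, Psma8, Cd5l, March8, Cox6a2 and H2-Q6 missed the significance threshold when only those libraries were fitted. The CD11c-eYFP+ cells came from the line Tg(Itgax-Venus)1Mnz, in which the fluorescent protein Venus, a variant of eYFP, is driven by Itgax regulatory sequence. The microglia came from CX3CR1CreERT2:Rosa26-tdT mice, in which Cre recombinase expressed from the Cx3cr1 locus switches on tdTomato after tamoxifen. All animals were male, 13 to 14 weeks old, and the tissue of both groups was ipsilateral brain after ischemia. The labels do not state the time after ischemia. Cells were freed with a neural dissociation kit, enriched on Percoll and sorted by fluorescence with no antibody staining. Each population has its own mouse line, so the population and the line cannot be told apart. The labels do not say that the libraries of a group came from separate animals, and p-values then reflect library-to-library spread only.

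CD11c is the integrin alpha X chain, encoded by Itgax, and is carried by dendritic cells and by part of the monocytes and macrophages. Dendritic cells take up antigen, load it on MHC class II molecules and present it to T cells, and after ischemia they and monocytes enter the brain from blood and from the borders of the tissue. Microglia settle in the brain in the embryo, depend on signalling through the CSF1 receptor and read the state of neurons through purinergic, complement and TGF-beta receptors. CD11c can also be carried by microglia themselves in injured tissue, and the sort used no antibody that would tell such cells from incoming ones.

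The 8 libraries held 31569304 to 44714487 counted reads. Between 16941 and 19482 genes had a read in a CD11c library and between 19915 and 20831 in a microglia library. Levels are CPM, counts per fixed library size scaled by edgeR's TMM factors, and a difference is the log2 ratio of CD11c cells to microglia ± its standard error, with 4 libraries in each group. A gene was called higher or lower at an adjusted p under 0.05 in edgeR's quasi-likelihood test. Of 16345 genes tested, 3213 (19.7%) were higher in the CD11c cells and 3130 (19.1%) were lower, together 38.8%. Higher genes made up 50.7% of the calls, and 62.4% when libraries were scaled by their totals alone, which moved the median over all genes by 0.10. The 2 directions were alike in number and unlike in reach. At least 2-fold higher were 1687 genes (10.3%) and at least 2-fold lower were 1270 (7.77%). A 4-fold difference was passed by 1081 higher and 338 lower genes, and a 16-fold difference by 415 and 51, which include genes at or near 0 in 1 group whose fitted size rests on the prior count. Among called genes with at least 20 CPM in the group where they were higher, 125 were 16-fold higher in the CD11c cells and 0 were 16-fold lower. In 31.4% of the tested genes all 4 CD11c libraries lay on 1 side of all 4 microglia libraries, called or not. In sorted bulk samples a smaller share of cells with a transcript and less of it per cell cannot be told apart.

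**Figure D1:**
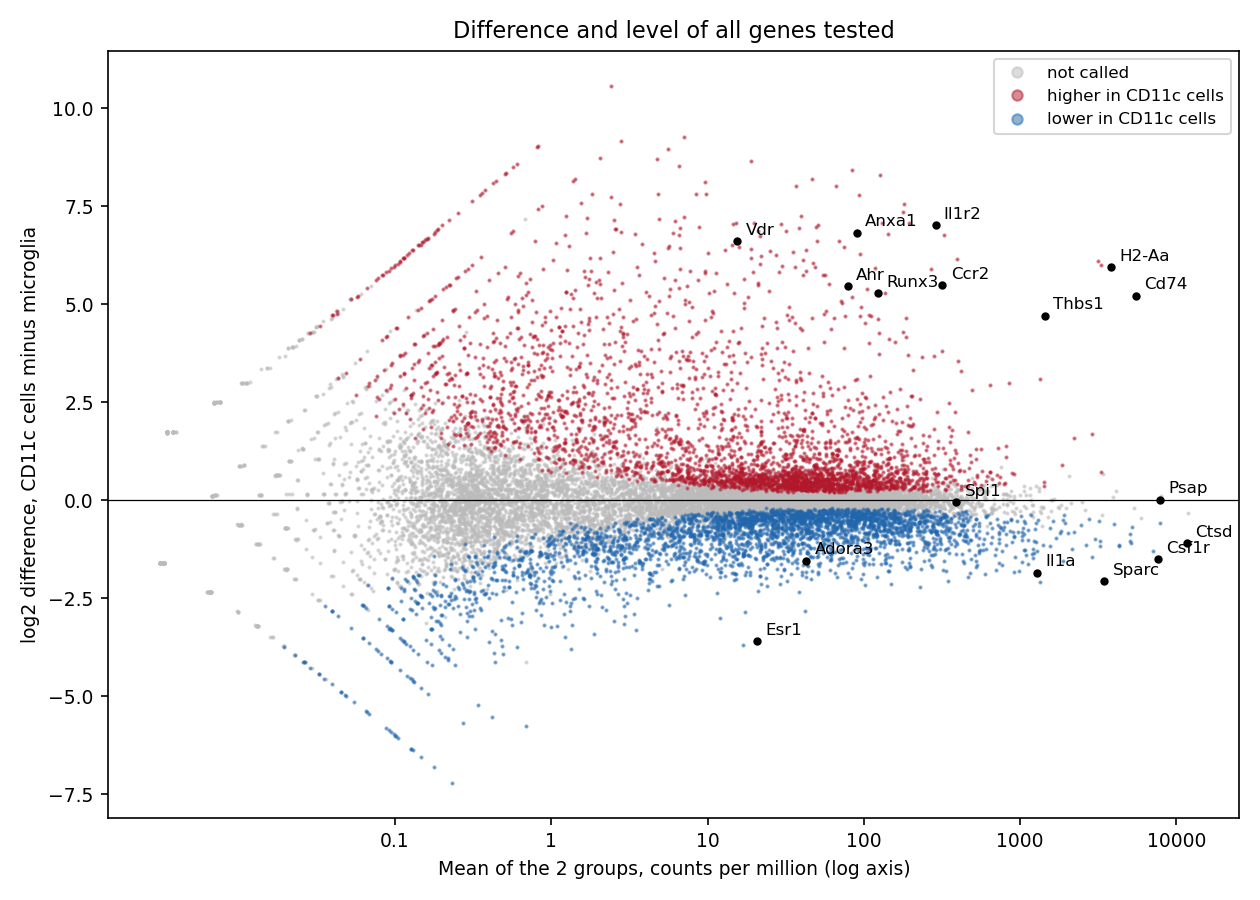
Log2 ratio of CD11c cells to ischemic microglia (vertical axis) against the mean CPM of both groups (horizontal log axis), 1 point per tested gene, coloured by its call in edgeR's quasi-likelihood test, with some genes labelled in black. The upper side reaches beyond a log2 difference of 8, while among genes above 20 CPM in microglia the lower side ends at Lyve1, -3.71.

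Both genes whose sequence drives the reporters were checked first. Itgax had 478, 728, 865 and 954 CPM in CD11c replicates 1 to 4 and 92.0, 35.2, 90.2 and 91.2 CPM in microglia replicates 1 to 4, a difference of 3.29 ± 0.31 (edgeR's quasi-likelihood test, adjusted p = 6.37e-07). Every CD11c library was above every microglia library, and the microglia were not free of the transcript. Cx3cr1, the fractalkine receptor, had 1245, 1366, 1402 and 1234 CPM in CD11c cells and 2083, 1778, 2065 and 1722 in microglia, a difference of -0.54 ± 0.14, so the CD11c libraries were lower and still far from 0. The microglia line expresses Cre from this locus, and the part of that in the Cx3cr1 difference was not tested. Near Itgax, within 500000 bases on chromosome 7, 36 genes were tested, and 7 were higher and 12 lower. Near Cx3cr1 on chromosome 9 the counts were 4 higher and 4 lower of 17. Around Gt(ROSA)26Sor on chromosome 6, where the tdTomato cassette sits in the microglia line, 1 of 24 genes was higher and 5 were lower. Over all tested genes 19.7% were higher and 19.1% lower, and the called genes at each locus include the gene that names it. Gt(ROSA)26Sor itself differed by -0.70 ± 0.16, with CD11c values of 13.4, 12.9, 15.0 and 17.0 CPM overlapping the microglia values of 24.0, 16.4, 29.2 and 25.2 CPM.

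The markers of conventional dendritic cells stood out in the CD11c libraries. Of 21 such genes tested, 18 were higher and 0 lower, with a median difference of 5.38, while the median over all tested genes was 0.0. Their summed level was 18740 to 49660 CPM in CD11c cells and 916 to 1421 CPM in microglia. Most of the sum in CD11c cells came from the class II pathway genes Cd74, H2-Aa, H2-Ab1 and H2-Eb1. Their means were 10780, 7562, 6459 and 6164 CPM, in that order. Kit, the stem cell factor receptor, was the member with the largest difference, with 56.6, 94.4, 199 and 183 CPM against 0.777, 0.266, 0.183 and 0.820. Flt3, the receptor for the growth factor that sustains dendritic cells, had 116, 161, 404 and 351 CPM in CD11c cells and 1.68, 2.34, 1.05 and 2.54 in microglia, a difference of 7.08 ± 0.48 (edgeR's quasi-likelihood test, adjusted p = 2.44e-08). Neither gene showed any overlap between the groups. Zbtb46, a transcription factor used to define conventional dendritic cells, differed by 2.19 ± 0.28, and Dpp4 (CD26), a peptidase of type 1 dendritic cells, by 7.80 ± 0.47.

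Each list of dendritic subtype markers had more genes higher than lower, but the summed levels did not all follow. Type 2 markers summed to 3005 to 3181 CPM in CD11c cells and 4241 to 4493 in microglia. For plasmacytoid markers the sums were 1295 to 1701 against 2364 to 3486, and for mature, migratory ones 3903 to 5830 against 5629 to 7655. In each of these lists most of the microglia sum came from few genes, all called lower in CD11c cells. For type 2 they were Sirpa and Itgam, with microglia means of 2814 and 989.9 CPM. The plasmacytoid list had Siglech, Lag3 and Lair1 at 934.3, 740 and 746.8 CPM, and the mature list Cd83 at 4377. Type 1 markers summed to 1708 to 2197 CPM in CD11c cells and 1565 to 1715 in microglia. Among markers of type 1 dendritic cells, which cross-present antigen to CD8 T cells, 13 of 19 were higher and 3 lower, with a median of 2.82. Xcr1, the chemokine receptor that defines them, had 6.96, 16.2, 23.4 and 29.3 CPM against 0.301, 0.505, 0.235 and 0.265, and every CD11c library lay above the microglia. Gcsam, a germinal centre adaptor with the largest fitted difference (8.71, or 9.65 without microglia replicate 1), summed to 1310 counts in the CD11c libraries and 3 in microglia, a ratio of 492 with a counting interval of 168 to 2.39e+03. The lowest called member was Tlr3, the receptor for double-stranded RNA, with 44.8, 43.1, 54.0 and 61.9 CPM in CD11c cells and 95.2, 91.2, 109 and 112 CPM in microglia. Of the type 2 markers 11 of 18 were higher and 2 lower (median 1.64), led by Cd7, a surface glycoprotein, at 7.80 ± 0.46, with Itgam (CD11b) lowest at -1.08 ± 0.17. The mature, migratory state had 18 of 28 genes higher and 3 lower (median 1.74). Ccr7, the receptor that guides dendritic cells to lymph nodes, had 149, 173, 216 and 277 CPM in CD11c cells and 4.36, 3.88, 3.19 and 8.10 in microglia. Apol7c led that list at 5.64 ± 0.78, and Cd83, used as a maturation marker, was lower at -1.05 ± 0.24. Of 18 plasmacytoid markers 9 were higher and 5 lower. Ly6d, a surface protein of lymphoid progenitors, summed to 167 counts in the CD11c libraries and 0 in microglia, at least 62.7-fold higher with a floor of 3 counts over the group, whereas Lag3 (-1.96) and Siglech (-1.89), which microglia share with plasmacytoid cells, were lower.

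Monocyte markers were higher as well. Of 28 genes of monocytes and cells derived from them, 23 were higher and 1 lower, with a median of 3.77. Chil3 (Ym1), a chitinase-like secreted protein, led at 8.41 ± 1.20, and moved to 7.73 without CD11c replicate 1 and to 9.08 without microglia replicate 2. It was at 9.26 with CD11c replicates 1 and 2 alone and at 6.07 with replicates 3 and 4 alone. Ccr2, the receptor that brings inflammatory monocytes out of the bone marrow, had 656, 686, 611 and 535 CPM in CD11c cells and 12.1, 15.8, 12.7 and 14.6 CPM in microglia, a difference of 5.49 ± 0.28 (adjusted p = 6.45e-10 in edgeR's quasi-likelihood test). No microglia library came near the CD11c values. Fcgr1, the high-affinity IgG receptor, was the member that was lower, at -0.77 ± 0.20, though with CD11c replicates 1 and 2 alone it was at -0.43 and not called. Of 18 border macrophage markers 4 were higher and 9 lower (median -0.91). That balance depended on the pair of CD11c libraries, with 6 higher and 6 lower (median -0.37) for replicates 1 and 2 alone and 3 higher and 12 lower (median -1.43) for replicates 3 and 4 alone. Lyve1, a hyaluronan receptor of perivascular macrophages, had 1.70, 0.364, 3.96 and 3.61 CPM against 30.2, 45.7, 22.6 and 27.5 CPM in microglia, and Cd163, a haemoglobin scavenger receptor, differed by -2.83 ± 0.47. The list's extremes were Clec12a, a C-type lectin, at 2.91 ± 0.23 and Cd209g, a lectin gene with close relatives, with 2 counts in all CD11c libraries and 127 in microglia, 56.4-fold lower with a counting interval of 15.3 to 471.

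The genes of homeostatic microglia were lower in the CD11c cells but far from absent. Of 30 tested, 28 were lower and 0 higher, with a median of -1.34, and the range over the list was -2.13 to -0.11. P2ry12, the ADP receptor that steers microglial processes, had 367, 398, 669 and 588 CPM in CD11c cells and 2438, 1567, 2393 and 2265 CPM in microglia, a difference of -2.10 ± 0.21 (adjusted p = 9.65e-07 in edgeR's quasi-likelihood test). Slc2a5, a fructose transporter and the member with the largest difference, had 48.1, 39.3, 74.5 and 60.5 CPM against 272, 173, 281 and 248. Tmem119, a membrane protein of microglia, differed by -1.57 ± 0.16. The groups did not overlap for any of these 3 genes. None of the list's genes was at 0 in the CD11c libraries, where the lowest mean was 51 CPM. Their summed level was 36080 to 38910 CPM in CD11c cells and 77640 to 93560 in microglia, so each CD11c library held 41 to 44.2% of the mean microglia sum. The range was narrow although the summed dendritic markers of the same libraries, mostly class II genes by level, ran from 18740 to 49660 CPM. What part these transcripts have in the other differences was not tested.

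Other cell types were measured at lower levels. Neuronal markers had 10 of 14 genes lower and 0 higher in CD11c cells, for example Snap25, a synaptic protein, at -3.18 ± 0.42. Gad2, a GABA-synthesising enzyme and the member with the largest fitted difference, had 31 counts in microglia and 0 in CD11c cells, at least 9.18-fold lower. Astrocyte markers had 5 of 12 lower and 0 higher, with Aqp4, a water channel, at -2.04 ± 0.58, or -1.50 and no longer called without microglia replicate 3. Oligodendrocyte markers had 6 of 14 higher and 0 lower, with 1 higher and 1 lower when CD11c replicates 1 and 2 were used alone and 10 higher and 1 lower with replicates 3 and 4 alone. Opalin, a myelin gene and the member with the largest difference, had 0.486, 0.0280, 1.44 and 3.23 CPM in CD11c cells and 0.226, 0.0797, 0.105 and 0.0529 CPM in microglia, groups that overlapped. It differed by 3.44 ± 0.90, or 2.45 without CD11c replicate 4, and its call was lost with CD11c replicates 1 and 2 alone (1.10) and with limma-voom. T cell markers had 12 of 20 higher and 1 lower, from Tcf7, a transcription factor, at 5.11 ± 0.50 to Cd4 at -1.43 ± 0.38, the latter not called with limma-voom or with CD11c replicates 3 and 4 alone. With CD11c replicates 1 and 2 alone 6 T cell markers were higher and with replicates 3 and 4 alone 15, and leaving out 1 library at a time gave 8 to 15. The part of these other cells in the differences was not tested.

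The 4 CD11c libraries were not alike. The titles of replicates 1 and 2 share 1 naming style and those of replicates 3 and 4 another, and what the titles mark is not given. In a principal component analysis of the 8 libraries the first component, with 57.9% of the variance, separated the populations, and on the second, with 16.9%, CD11c replicates 1 and 2 lay at -51.1 and -59.6 and replicates 3 and 4 at 17.6 and 79.7. On the third, with 11.5%, replicates 3 and 4 lay apart at -77.8 and 43.6, and replicates 1 and 2 at 23.3 and 15.1. Correlations of log2 CPM were 0.9864 between replicates 1 and 2 and 0.9576 between replicates 3 and 4. Across the pairs they were 0.952 to 0.9633. The summed monocyte markers were 22920 and 20380 CPM in replicates 1 and 2 and 9532 and 9250 in replicates 3 and 4, against 5172 to 6359 in microglia. Most of that sum came from Lyz2, Thbs1, Fn1 and Vim, with CD11c means of 4426, 2772, 2497 and 1495 CPM. The list's median difference was 4.38 with the first pair and 2.93 with the second, and Ccr2, given above, differed far less between the pairs than the sum. The summed border macrophage markers were 3790 and 3884 CPM in the first pair and 1960 and 1654 in the second, against 2950 to 3661 in microglia. The summed dendritic markers, mostly class II genes by level, ran the other way, 18740 and 26580 CPM against 40090 and 49660. With replicates 1 and 2 as the only CD11c libraries 1201 of the 6343 calls were lost, and with replicates 3 and 4 alone 1303 were lost.

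**Figure D2:**
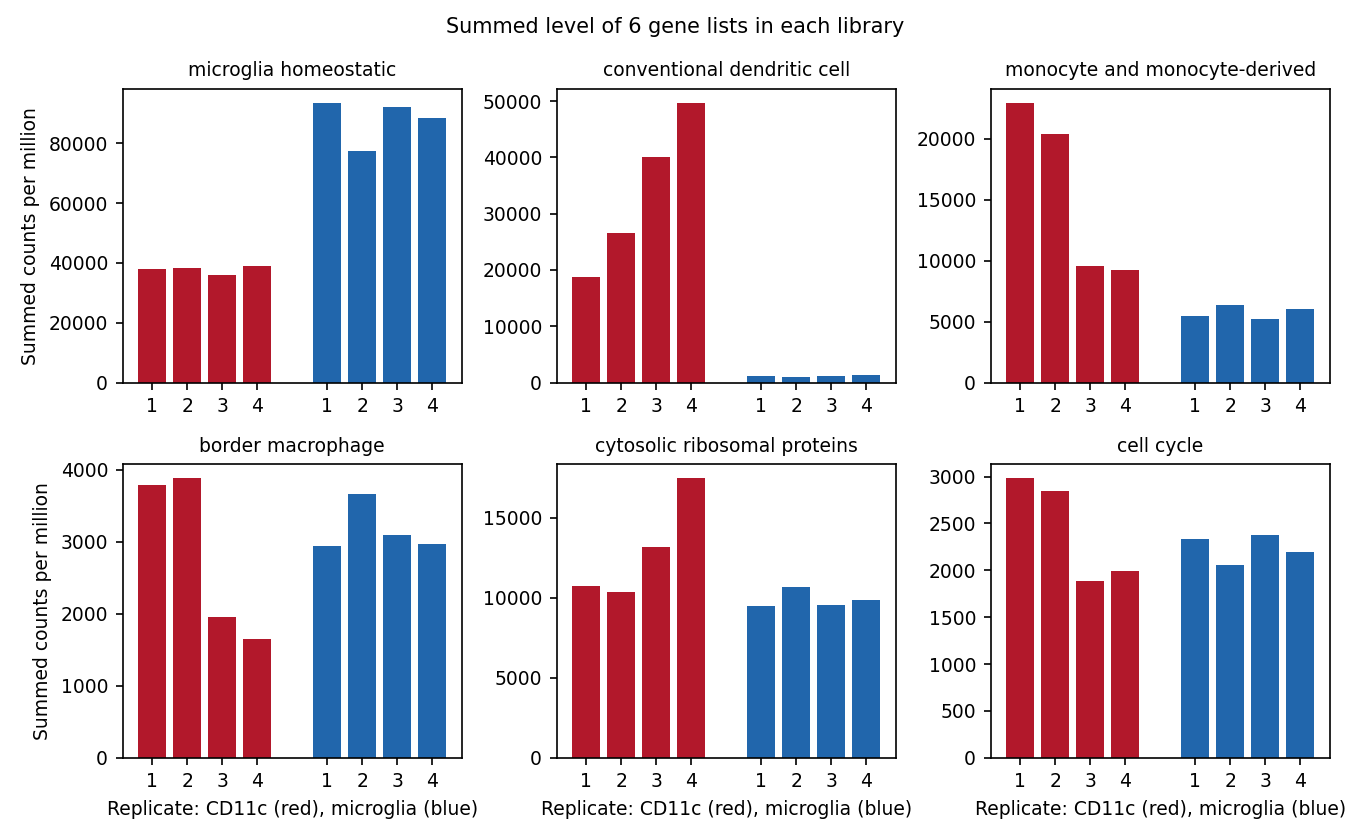
Summed CPM (bars, from 0) of 6 gene lists in each of the 4 CD11c libraries (red) and 4 microglia libraries (blue). The monocyte list is higher in CD11c replicates 1 and 2. The dendritic list, mostly class II genes by level, is higher in replicates 3 and 4. The homeostatic microglia list is nearly level at 36080 to 38910 CPM across all 4 CD11c libraries.

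Some genes split the CD11c libraries so widely that the 4-library value describes neither pair. Spp1 (osteopontin), a secreted phosphoprotein, had 9280.1, 5706, 867 and 884 CPM in CD11c replicates 1 to 4 and 2490.0, 1968, 2699 and 3325 CPM in microglia. Replicates 1 and 2 were above all microglia libraries and replicates 3 and 4 below them, and the gene was not called. Mki67, a marker of cycling cells, had 174, 164, 58.3 and 40.7 CPM against 136, 137, 154 and 137, with differences of 0.26 for replicates 1 and 2 and -1.49 for replicates 3 and 4. Of 45 cell cycle genes, 32 were above microglia in the first pair and below in the second, and the list's median was 0.40 in the first and -0.88 in the second. The 5 cycle genes called higher with all libraries, against 0 lower, included Ccnd2, a D-type cyclin, at 4.02 ± 0.32 and Cdkn1b, the inhibitor p27, at 1.34 ± 0.20. Gpnmb, a glycoprotein of lipid-laden macrophages, had 1055, 1029.8, 117 and 149 CPM against 71.0, 14.4, 51.6 and 31.0 in microglia, higher in both pairs but at 4.63 in the first and 1.67 in the second.

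**Figure D3:**
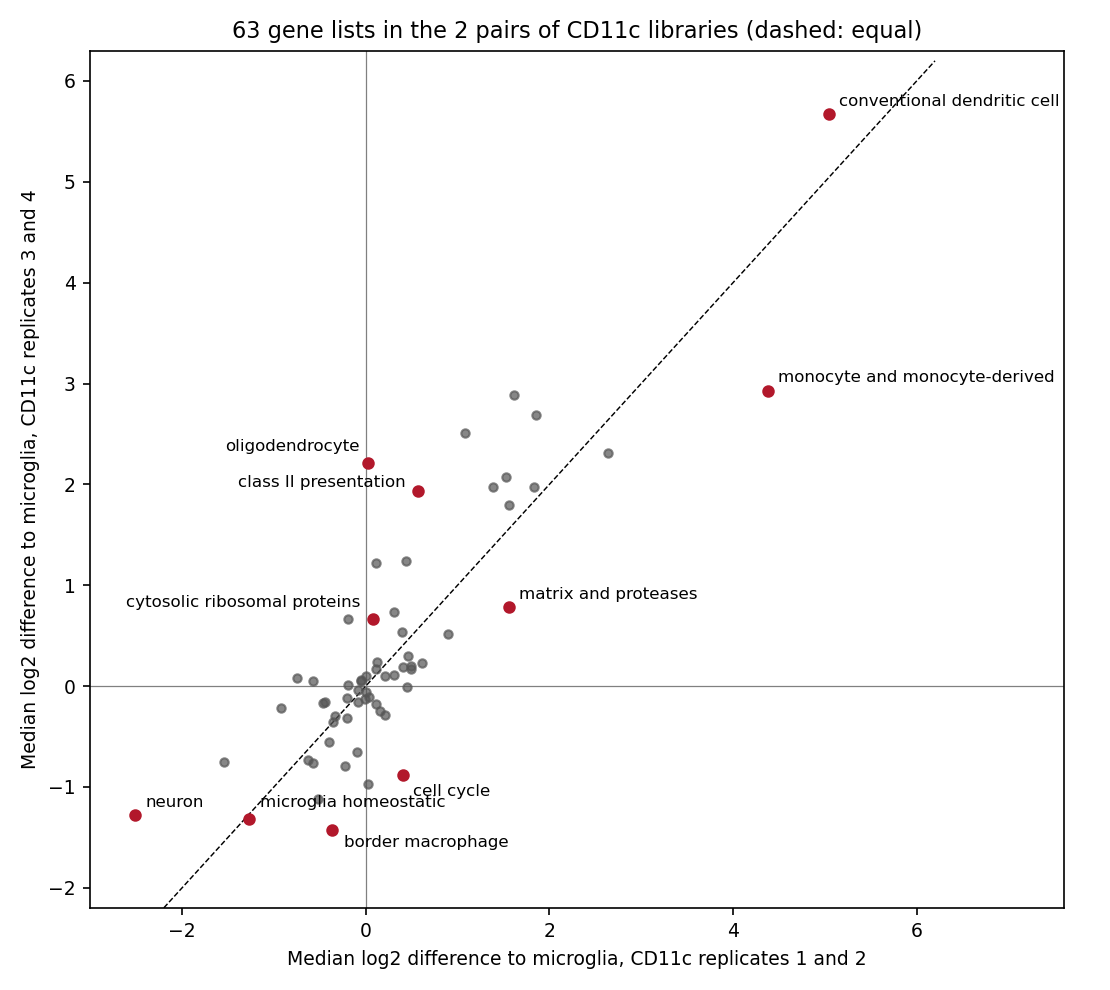
Median log2 difference from microglia of each gene list with CD11c replicates 1 and 2 (horizontal axis) and with replicates 3 and 4 (vertical axis). The cell cycle list lies at 0.40 and -0.88, and the oligodendrocyte list at 0.02 and 2.21, while the homeostatic microglia list stays at -1.27 and -1.32.

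Antigen presentation separated MHC class II from class I. Of 19 class II pathway genes 13 were higher and 5 lower (median 1.34). Ciita, the coactivator that switches the class II genes on, had 79.6, 94.0, 200.2 and 175 CPM in CD11c cells and 2.28, 0.319, 1.59 and 1.40 CPM in microglia, a difference of 6.61 ± 0.52. H2-Aa, a class II alpha chain, had 4153, 5710.0, 9122 and 11276 CPM against 131, 58.8, 138 and 161, and Cd74, the invariant chain, 6231, 9169.9, 11914 and 15818 against 296, 199, 317 and 350.3. All CD11c values lay above all microglia values for the 3 genes. H2-Eb2 had the largest difference, 6.77 ± 0.36, at a low level of 13.1 ± 2.22 CPM (SD, n = 4). The lower members were led by March8, a ubiquitin ligase that removes class II from the surface, at -0.75 ± 0.26, a call lost without CD11c replicate 3 or 4 (-0.61 and -0.53) and without any 1 of the microglia replicates (-0.75 to -0.72). It was -0.26 and not called with CD11c replicates 1 and 2 alone and -1.46 with replicates 3 and 4 alone. Ctss, the protease that trims the invariant chain, was lower at -0.59 ± 0.11. The 5 lower class II pathway genes became 3 without microglia replicate 2, 3 or 4. Of 23 class I genes 4 were higher, 6 lower and 11 of like level, meaning that the 95% interval of the difference lay within 0.5 of 0. B2m, the shared light chain, differed by -0.61 ± 0.16 with overlapping groups, and Tap1, the peptide transporter, by -0.04 ± 0.12. Psmb8, an immunoproteasome subunit, was highest at 0.67 ± 0.12, and H2-Q6, whose reads can be shared with near-identical relatives, lowest at -1.11 ± 0.36, a call lost without CD11c replicate 1 or 2 or microglia replicate 3 or 4 (-1.01 to -0.89). H2-Q6 was at -1.88 with CD11c replicates 1 and 2 alone and at -0.60, not called, with replicates 3 and 4 alone. The 6 lower class I genes became 2 without CD11c replicate 1 or 2 or microglia replicate 3, and 3 without microglia replicate 4.

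Ligands and receptors of T cell help were split. Of 33 costimulation and checkpoint genes 13 were higher and 10 lower (median -0.24). Tnfsf4 (OX40 ligand) led at 8.53 ± 0.52, or 9.33 without microglia replicate 1. Slamf7, a receptor of the SLAM family, had 99.8, 136, 106 and 127 CPM in CD11c cells against 5.19, 3.85, 5.23 and 8.31 in microglia. Pdcd1lg2, a PD-1 ligand, differed by 4.37 ± 0.27 and Cd80 by 1.92 ± 0.14, whereas Cd86, which binds the same T cell receptors as Cd80, differed by -0.01 ± 0.14. The lower side held Slamf1 at -2.05 ± 0.21, Vsir (VISTA), a checkpoint protein, at -1.30 ± 0.12 and Nectin2 at -1.49 ± 0.13.

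Among 94 transcription factors of myeloid cells 31 were higher and 28 lower, with a median of 0.04, so the groups differed in which factors were high. After Ciita the largest differences were those of Vdr and Spib. Vdr, the vitamin D receptor, had 31.4, 39.1, 35.0 and 17.2 CPM in CD11c cells and 0.401, 0.399, 0.105 and 0.344 CPM in microglia. Ahr, the aryl hydrocarbon receptor, had 102, 128, 201 and 188 CPM against 3.03, 3.88, 3.40 and 3.73, a difference of 5.46 ± 0.23. For both genes the lowest CD11c library lay far above the highest microglia library. Runx3 differed by 5.28 ± 0.25, Nr4a2, an orphan nuclear receptor, by 4.62 ± 0.34, Rara, a retinoic acid receptor, by 4.01 ± 0.20, and Irf4, needed for type 2 dendritic cells, by 1.53 ± 0.29. The lower side was led by Esr1, the estrogen receptor alpha, with 3.37, 2.83, 3.27 and 3.10 CPM in CD11c cells and 43.9, 37.0, 42.5 and 29.4 CPM in microglia, a difference of -3.60 ± 0.13 (adjusted p = 1.61e-11 in edgeR's quasi-likelihood test). The spread within each group was small beside that gap. Sall1, which keeps microglia in their state, differed by -1.82 ± 0.22, Mef2c, a MADS-box factor of microglial enhancers, by -1.13 ± 0.12, Maf by -1.22 ± 0.15 and Smad3, which carries TGF-beta signals, by -1.28 ± 0.14. Spi1 (PU.1), the master factor of myeloid cells, was of like level at -0.05 ± 0.12, and Irf8 was lower at -0.63 ± 0.13.

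Receptors for growth factors and cytokines numbered 65 tested, of which 22 were higher and 14 lower (median 0.31). Il1r2, the decoy receptor that binds IL-1 without signalling, had 281, 503, 742 and 758 CPM in CD11c cells and 6.84, 2.58, 1.96 and 6.22 CPM in microglia, a difference of 7.02 ± 0.50 (adjusted p = 3.88e-08 in edgeR's quasi-likelihood test). The receptor of GM-CSF was higher in its alpha chain, Csf2ra (0.75 ± 0.16), and in its shared beta chain, Csf2rb (1.30 ± 0.16), whose reads can be split with its paralog. Csf1r, the receptor that microglia need to survive, had 3804, 3962, 4578 and 3456 CPM against 11078, 11173, 11312 and 11355 and differed by -1.51 ± 0.14. The CD11c libraries were lower by more than 2-fold, with none near 0. Tgfbr1 (-1.03 ± 0.12) and Tgfbr2 (-0.83 ± 0.12), the TGF-beta receptor chains, and Il10ra (-0.82 ± 0.14) were lower. The largest fall in the list was that of Tslp, a cytokine listed with its receptor, at -2.32 ± 0.38 and a level of 1.64 ± 0.682 CPM in microglia (SD, n = 4).

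Chemokine receptors and adhesion molecules followed. Of 32 chemokine receptors 13 were higher and 9 lower, and of 47 integrins and adhesion genes 21 were higher and 11 lower. Ltb4r1, the leukotriene B4 receptor, differed by 5.32 ± 0.35 and Ccr1 by 2.84 ± 0.26. The largest fall among receptors was that of Ccr3, an eotaxin receptor, at -1.75 ± 0.63. Its value was -2.64 without CD11c replicate 1, and its call was lost without any 1 of the other CD11c replicates or microglia replicates 1, 3 and 4 (-1.80 to -1.32). With CD11c replicates 1 and 2 alone it was -1.09 and not called, and with replicates 3 and 4 alone -3.02. Ackr3, a chemokine scavenger, was lower at -1.51 ± 0.37. Cdh1 (E-cadherin) had 30.7, 78.0, 100 and 84.9 CPM in CD11c cells and 0.451, 0.399, 0.0784 and 0.185 CPM in microglia. Itgb7, an integrin beta chain of lymphocytes and dendritic cells, had 204, 212, 404 and 313 CPM against 3.01, 3.37, 1.25 and 2.62, and its partner Itga4 differed by 3.74 ± 0.27. Vcam1, the ligand of the Itga4 integrins, had 38.9, 45.1, 61.0 and 54.2 CPM in CD11c cells and 129, 249.6, 173 and 223 in microglia. Icam1 (-1.44 ± 0.21) and Itgb3 (-1.58 ± 0.12) were lower as well.

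Secreted signals were more often lower in the CD11c cells. Of 55 cytokines and growth factors 10 were higher and 23 lower (median -0.69), and of 25 chemokines 8 were higher and 8 lower. With CD11c replicates 1 and 2 alone 5 chemokines were lower, and with replicates 3 and 4 alone 9. Tnf had 442, 261, 333 and 580.0 CPM in CD11c cells and 1367, 1737, 1202 and 1434 CPM in microglia, a difference of -1.83 ± 0.34 (adjusted p = 0.000543 in edgeR's quasi-likelihood test). Il1a differed by -1.85 ± 0.24 without overlap, while Il1b, the other IL-1 agonist, had 1772, 1571, 2551 and 3767 CPM against 1352, 920.2, 1294 and 1651 and was higher by 0.89 ± 0.25, with overlapping libraries and a call lost when replicates 1 and 2 were the only CD11c libraries. Csf1 (-1.72 ± 0.21), Pdgfb (-1.26 ± 0.21) and Osm (-0.81 ± 0.15) were lower. Vegfa, the vascular growth factor, had 272, 244, 142 and 131 CPM in CD11c cells and 21.5, 4.07, 43.3 and 18.6 in microglia, and Tgfb3 differed by 4.60 ± 0.42. The extremes of the list were scarce genes. Tnfsf11 (RANK ligand) had 54 counts in CD11c cells and 1 in microglia, 60.8-fold higher with a counting interval of 10.5 to 2.45e+03, and Fasl had 1 count in CD11c cells and 23 in microglia, 20.4-fold lower with an interval of 3.32 to 841. The fitted difference of Tnfsf11 went from 5.38 to 7.0 without microglia replicate 4 and 4.67 without CD11c replicate 4, and was 2.66 and not called with CD11c replicates 1 and 2 alone against 6.29 with replicates 3 and 4. That of Fasl went from -3.86 to -5.57 without CD11c replicate 2 and, at -3.24, was not called without microglia replicate 1. It was -3.11 and not called with CD11c replicates 1 and 2 alone, against -5.59 with replicates 3 and 4. Among chemokines Ccl17 (4.06 ± 0.46) and Ccl22 (3.74 ± 0.33), ligands of CCR4, were higher, as was Ppbp, a platelet chemokine, at 4.17 ± 1.02, or 5.08 without microglia replicate 1 and not called with limma-voom. Ppbp was at 4.97 with CD11c replicates 1 and 2 alone and at 2.20, not called, with replicates 3 and 4 alone. Ccl8 (-3.02 ± 0.46), Ccl12 (-1.45 ± 0.24) and the near relatives Ccl3 (-1.63 ± 0.28) and Ccl4 (-1.48 ± 0.28) were lower.

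**Figure D4:**
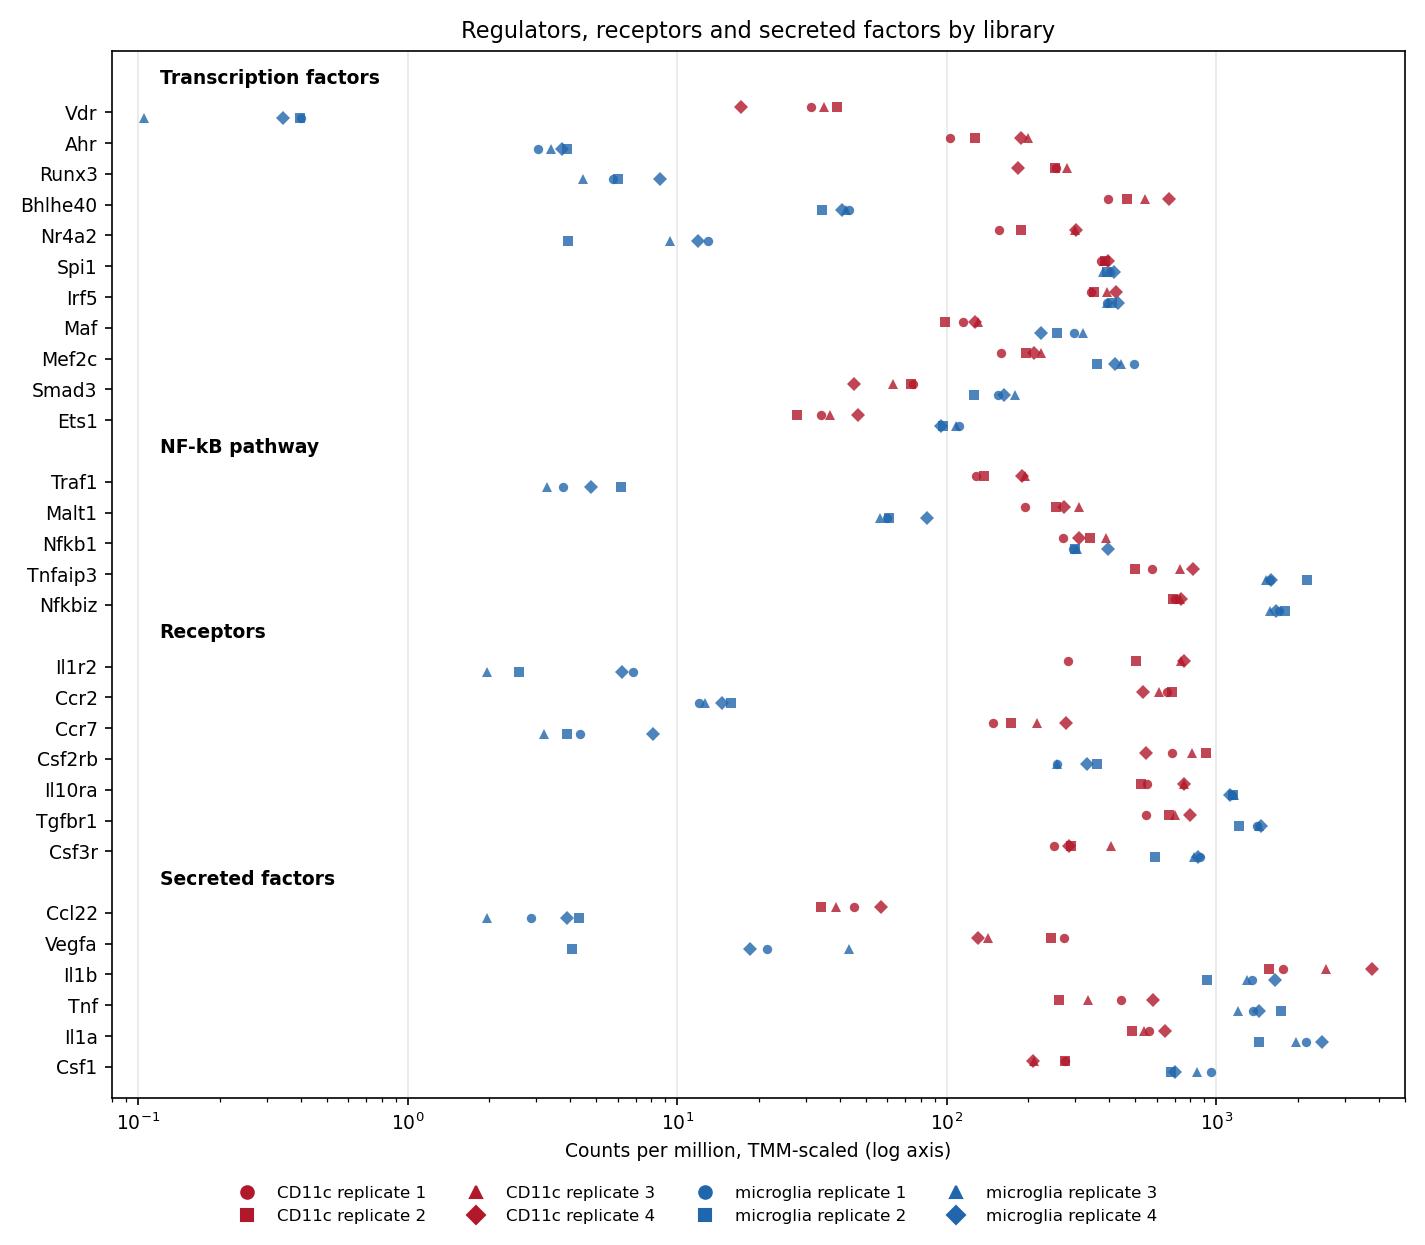
CPM on a log axis for transcription factors, NF-kB pathway genes, receptors and secreted factors, 1 symbol per library (red for the 4 CD11c libraries, blue for the 4 microglia libraries). Vdr, Ahr, Traf1 and Il1r2 lie apart in favour of the CD11c cells, Spi1 overlaps, and Tnf, Il1a and Tnfaip3 lie higher in microglia.

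Innate sensing genes were also mostly lower, 24 of 42 against 5 higher (median -0.44), or 16 lower with scaling by library totals. Tlr7, which reads single-stranded RNA, had 282, 331, 276 and 218 CPM in CD11c cells and 509.8, 790.3, 569 and 796 CPM in microglia. Tlr2 (-0.72 ± 0.17), Tlr9 (-1.02 ± 0.15) and Ly86 (-1.05 ± 0.16), which binds the TLR4 relative CD180, were lower. The extremes were Nlrc4, an inflammasome sensor, at 2.21 ± 0.23 and Tlr12 at -1.64 ± 0.33. Nod2, a sensor of bacterial cell wall, was higher at 1.80 ± 0.20. The type I interferon response had 0 of 39 genes higher and 13 lower (median -0.42), with Iigp1, an interferon-inducible GTPase, lowest at -1.62 ± 0.37 and Irf7 at -0.01 ± 0.23. In the NF-kB pathway 13 of 32 genes were higher and 7 lower. The adaptor Traf1 (5.17 ± 0.27) was higher, the feedback inhibitors Tnfaip3 (A20, -1.39 ± 0.20) and Nfkbia (-0.91 ± 0.23) lower, and the subunit Nfkb1 differed by 0.02 ± 0.13. C-type lectins were more often higher, 21 of 38 against 8 lower (median 1.74). Klrb1b, an inhibitory lectin of NK cells, had 98.8, 131, 273 and 249 CPM against 2.78, 1.89, 1.70 and 3.36, and Mrc2, a collagen receptor, differed by -1.60 ± 0.23. The extremes of that list were Cd209g and Clec4g, which had 68 counts in CD11c cells and 0 in microglia, at least 25.5-fold higher.

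Purinergic genes traded members, 10 of 29 higher and 10 lower. P2ry10, a receptor for lysophosphatidylserine and related lipids, had 165, 258, 495 and 517 CPM in CD11c cells and 2.76, 1.30, 0.732 and 2.75 CPM in microglia, a difference of 7.57 ± 0.46. Nt5e (CD73), which makes adenosine from AMP, had 21.6, 40.0, 13.0 and 4.75 CPM against 0.251, 0.133, 0.131 and 0.476, and the adenosine receptors Adora2a (4.49 ± 0.38) and Adora2b (3.55 ± 0.37) were higher. Entpd1 (CD39), which makes AMP from ATP, was lower at -1.38 ± 0.14, with P2ry13 (-1.86 ± 0.16) and P2rx7 (-1.27 ± 0.12). Adora3, a further adenosine receptor, had 20.6, 16.5, 24.9 and 25.7 CPM in CD11c cells and 72.7, 53.1, 73.9 and 56.1 in microglia. P2ry12 had the largest fall of the list. In the amine and neurotransmitter group 13 of 31 genes were higher and 6 lower. Htr7, a serotonin receptor, had 36.9, 42.3, 41.1 and 30.4 CPM in CD11c cells and 0.150, 0.0266, 0 and 0.185 CPM in microglia, a difference of 8.64 ± 0.51 that was 9.23 without microglia replicate 4. Adra2a, an adrenergic receptor at a low level, fell furthest, at -2.72 ± 0.82, or -2.08 and not called without microglia replicate 3.

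Calcium-binding S100 proteins and annexins formed one of the most one-sided groups, with 16 of 22 higher and 1 lower (median 2.16). S100a4 had 96.1, 68.3, 65.9 and 89.1 CPM in CD11c cells and 1.20, 2.47, 0.627 and 1.61 CPM in microglia. S100a6 differed by 6.47 ± 0.31, S100a11 by 5.85 ± 0.22 and Anxa1, which limits neutrophil entry, by 6.83 ± 0.33. Anxa8 summed to 143 counts in the CD11c libraries and 0 in microglia, which makes it at least 53.7-fold higher with a floor of 3 counts over the group. Anxa3 was lower at -0.86 ± 0.16. Matrix genes and proteases had 18 of 38 higher and 9 lower (median 1.12). Timp1, a metalloproteinase inhibitor, had 39.6, 29.7, 18.4 and 15.2 CPM against 0.301, 0.425, 0.314 and 0.185, and Mmp14, a membrane-bound metalloproteinase, differed by 1.29 ± 0.24. Sparc, a matrix glycoprotein that microglia make in quantity, had 1062, 1287, 1554 and 1436 CPM in CD11c cells and 6174, 3922, 5871 and 6422 CPM in microglia. Its CD11c values were all below the microglia values, and Timp2, another inhibitor, was lower at -1.25 ± 0.17.

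Uptake and degradation genes leaned to microglia. Receptors and bridging proteins for apoptotic cells had 5 of 35 higher and 11 lower. Mertk, a receptor for dying cells, had 271, 311, 375 and 296 CPM in CD11c cells and 723, 752, 755 and 860.2 in microglia, and Trem2, a lipid-sensing receptor, differed by -1.06 ± 0.14, while Axl, the relative of Mertk, differed by 0.05 ± 0.17. Timd4, a phosphatidylserine receptor, was higher at 2.97 ± 0.27. The extremes of that list were Itgb3 and Havcr1, a phosphatidylserine receptor that was listed at 0 in every microglia library and had 0.942, 1.23, 0.664 and 0.569 CPM in CD11c cells, at least 43.9-fold higher. Of 46 lysosomal genes 20 were lower and 5 higher (median -0.31), with 15 lower for CD11c replicates 1 and 2 alone and 30 for replicates 3 and 4 alone. Ctsf fell furthest at -1.70 ± 0.22, and Acp5, a phosphatase, rose furthest at 4.70 ± 0.30. Complement genes had 11 of 23 lower and 2 higher. C1qa, a chain of the C1q recognition molecule, had 2984, 2911, 2100.2 and 2607 CPM in CD11c cells and 6161, 5979, 6078 and 5486 in microglia. Cfp (properdin), which stabilises the alternative convertase, had 343, 381, 370.2 and 317 CPM against 18.8, 22.4, 17.8 and 20.5, the reverse order. Vsig4, a C3b receptor, fell furthest at -3.33 ± 0.78, or -4.48 without CD11c replicate 3. It was at -5.74 with CD11c replicates 1 and 2 alone and at -2.45 with replicates 3 and 4 alone.

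Of 36 lipid handling genes 18 were higher and 5 lower (median 0.47). The balance was 17 higher and 2 lower with CD11c replicates 1 and 2 alone and 15 higher and 11 lower with replicates 3 and 4 alone, and 2 or 3 were lower without CD11c replicate 3 or 4 or microglia replicate 1, 3 or 4. Lgals3 (galectin 3) had 1110.4, 938, 422 and 503 CPM in CD11c cells and 64.8, 55.3, 70.5 and 62.6 CPM in microglia, and Pparg, a nuclear receptor for lipids, differed by 3.44 ± 0.40. Apoe, the lipid carrier of microglia and macrophages, differed by 0.11 ± 0.32. The largest rise was that of Gpnmb and the largest fall that of Cd5l, a macrophage protein, at -1.38 ± 0.48, a call lost without CD11c replicate 3 or 4 or microglia replicate 1, 3 or 4 (-1.34 to -1.11). Cd5l was at -0.74 and not called with CD11c replicates 1 and 2 alone and at -2.58 with replicates 3 and 4 alone. Sterol synthesis genes had 10 of 31 higher and 3 lower, with Lss lowest at -0.71 ± 0.18. In glycolysis Pfkp (4.70 ± 0.22), a phosphofructokinase, was higher and Ldhb (-1.71 ± 0.11), a lactate dehydrogenase chain, lower, among 6 higher and 9 lower of 38. The counts were 10 higher and 7 lower with CD11c replicates 1 and 2 alone, 3 higher and 13 lower with replicates 3 and 4 alone, and 5 lower without microglia replicate 1 or 3.

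Genes of the respiratory chain moved by small amounts in 1 direction, 43 of 80 higher and 2 lower (median 0.40). Cox5a, a cytochrome oxidase subunit, had 101, 93.5, 69.3 and 89.7 CPM in CD11c cells and 48.5, 47.5, 46.6 and 48.6 CPM in microglia. Cox6b2 was highest at 1.26 ± 0.32, though not called with CD11c replicates 1 and 2 alone (0.69). Cox6a2 was lowest at -0.76 ± 0.29, a call lost without CD11c replicate 3 or 4 or any 1 of the microglia replicates (-0.83 to -0.55), and at -0.50 not called with CD11c replicates 1 and 2 alone. Mitochondrial ribosomal proteins had 34 of 77 higher and 0 lower (median 0.29), led by Mrpl33 at 1.24 ± 0.11, and the proteasome had 23 of 47 higher and 1 lower, from Psmg4 at 0.73 ± 0.15 to Psma8 at -0.57 ± 0.20, a call lost without CD11c replicate 1 or 3 or microglia replicate 1, 3 or 4 (-0.58 to -0.47), or with either CD11c pair alone (-0.53 and -0.59). All 3 groups had more higher genes with CD11c replicates 1 and 2 alone than with replicates 3 and 4 alone. The respiratory chain had 56 against 28, the mitochondrial ribosome 47 against 21, with 0 against 7 lower, and the proteasome 37 against 14. Cytosolic ribosomal proteins, with 30 of 83 higher and 0 lower (median 0.40), depended on the pair in the other direction: 4 were higher with CD11c replicates 1 and 2 alone and 67 with replicates 3 and 4 alone. Leaving out 1 library at a time gave 11 to 47 higher, and scaling by library totals 45. The share of all reads on these genes was 1.01, 0.95, 1.34 and 1.75% in CD11c replicates 1 to 4 and 0.85 to 0.98% in microglia.

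**Figure D5:**
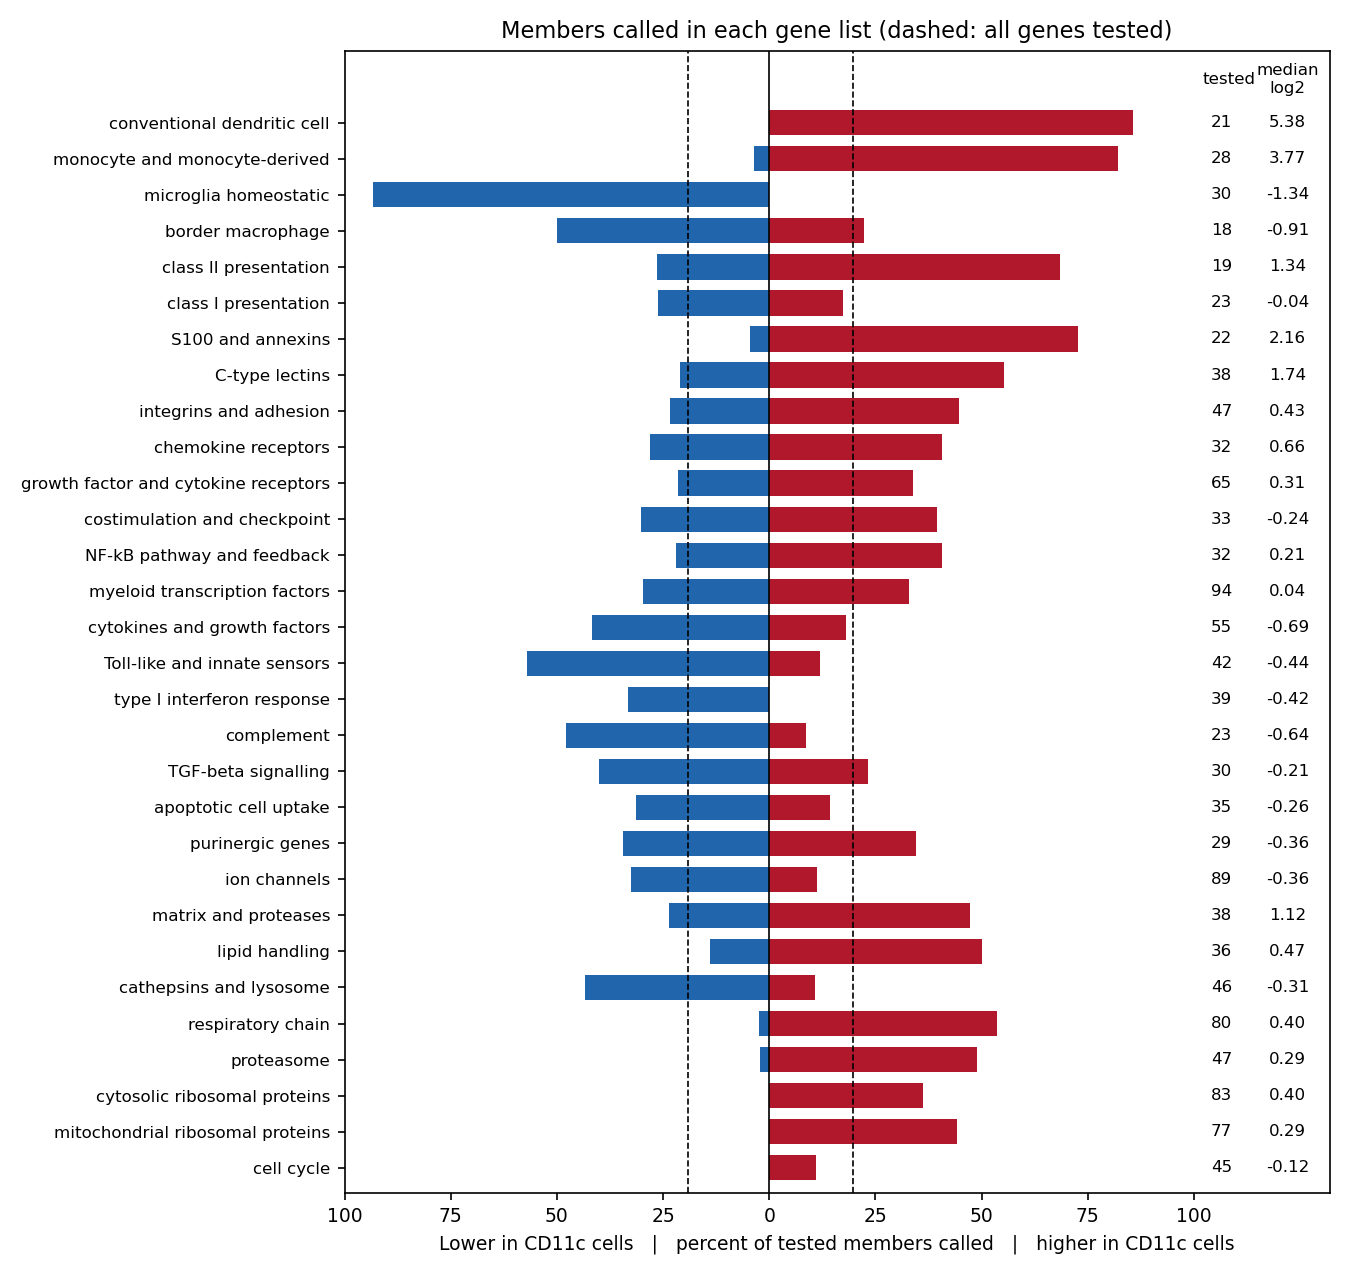
Share of 30 gene lists called higher (red, to the right) or lower (blue, to the left) in CD11c cells (horizontal axis, percent of tested members), with the number tested and the median log2 difference. Dashed lines mark the share over all tested genes, 19.7% higher and 19.1% lower, and the dendritic and monocyte lists reach furthest on the higher side and the homeostatic microglia list on the lower side.

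Genes of like level numbered 3531, or 21.6% of those tested. The 10 most abundant of them per exon length were Psap, Actb, Eef1a1, Fcer1g, H2-D1, Cotl1, Cd53, H2-K1, Hspa5 and Arhgdia. Psap, the saposin precursor, had 9777, 9794, 6004 and 6193 CPM in CD11c cells and 7735, 7913, 7423 and 8379 CPM in microglia, and Fcer1g, the signalling chain of activating Fc receptors, 1001, 924, 657 and 861 against 928, 714, 920.1 and 940.4. For Psap, CD11c replicates 1 and 2 lay above every microglia library and replicates 3 and 4 below every one. Its like level therefore describes the mean of the 4 CD11c libraries and neither pair. H2-D1 and H2-K1 are near-identical class I genes, and their split of reads is uncertain. Per exon length, the most abundant genes that were at least 2-fold higher in CD11c cells were Cd74, Lyz2, H2-Eb1, H2-Ab1, H2-Aa, Ifi30, Ifitm3, Tgfbi, Cxcr4, Thbs1, Lgals3 and Atox1. Lyz2 (lysozyme) had 6316, 6397, 2410.0 and 2587 CPM in CD11c cells against 1412, 1170.2, 1364 and 1582 in microglia, above them in all 4 libraries, with 2.20 for replicates 1 and 2 and 0.87 for replicates 3 and 4. Those on the lower side included Ctsd, C1qb, C1qa, C1qc, Ccl4, Ccl3, Csf1r, Fcrls, Cd83, Sparc and Serinc3. The 12 largest differences among genes with at least 20 CPM were those of Htr7, Chil3, Gpr171, B3gnt5, Cdh1, Kit, Dpp4, P2ry10, Napsa, Btla, Flt3 and Sdc1 on the higher side, from 8.64 to 7.08, with B3gnt5 at 8.20 or 8.81 without microglia replicate 4. On the lower side they were those of Lyve1, Esr1, Ccl8, Upk1b, Cd163, Csmd3, Myo18b, C4b, Cdh23, Mlph, Tspan18 and Tmc7, from -3.71 to -2.13.

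Promoter sequences of genes on either side were searched for short binding motifs of myeloid factors, in the window from 250 bases before to 50 after each gene start. RefSeq gave 14749 promoters (build GRCm38.p6) for 11544 of the tested genes, 1507 of them at genes at least 2-fold higher in CD11c cells and 1210 at genes at least 2-fold lower. Matches were counted on both strands. The AP-1 letters TGANTCA stood in 5.37% of all promoters, in 9.49% of those of higher genes and in 6.86% of those of lower genes. The PU.1 letters GAGGAAGT stood in 3.31% of all, 5.11% of higher and 2.64% of lower promoters. The interferon response letters, GAAA, 2 free bases and GAAA, stood in 3.35%, 5.18% and 3.31%, and the PU.1-IRF composite of GGAA, 2 free bases and GAAA, which can overlap them and the PU.1 letters, in 2.5%, 3.58% and 2.15%. The MEF2 letters, CTA, 4 free bases and TAG, ran the other way, with 3.1% of all, 2.59% of higher and 4.88% of lower promoters. The RUNX letters TGTGGT stood in 13.4%, 16.5% and 14.3%, and the NF-kB letters, GGG, 3 free bases and TTCC, in 6.35%, 7.03% and 5.21%. The general promoter letters CCAAT (37.2%, 33.6% and 34.8%) and CACGTG (9.42%, 6.97% and 7.69%) were rarer on both sides than over all promoters. These shares are descriptions of the letters, and no test was run on them.

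Promoters of 5 genes described here, chosen after their values were seen, show what such matches look like: 3 from genes higher in CD11c cells (P2ry10, Itgb7 and S100a11) and 2 from genes lower (Esr1 and Adora3). Each is printed 5′ to 3′ on the gene's own strand, from RefSeq on GRCm38.p6, with only the AP-1, PU.1 and MEF2 matches in capitals and positions counted from the gene start. Matches to the other letters searched were not marked or listed and may be present in lower case. P2ry10 lies at chrX:107088242-107088541 on the plus strand, with an AP-1 match at -99.
P2ry10: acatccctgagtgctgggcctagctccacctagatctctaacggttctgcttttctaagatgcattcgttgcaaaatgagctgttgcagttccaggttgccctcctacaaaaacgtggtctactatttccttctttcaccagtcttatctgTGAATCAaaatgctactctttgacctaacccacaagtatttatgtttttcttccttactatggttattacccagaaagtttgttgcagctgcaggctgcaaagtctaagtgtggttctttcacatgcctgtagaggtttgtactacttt
Itgb7 lies at chr15:102231886-102232185 on the minus strand, with a PU.1 match at 1, read on the opposite strand.
Itgb7: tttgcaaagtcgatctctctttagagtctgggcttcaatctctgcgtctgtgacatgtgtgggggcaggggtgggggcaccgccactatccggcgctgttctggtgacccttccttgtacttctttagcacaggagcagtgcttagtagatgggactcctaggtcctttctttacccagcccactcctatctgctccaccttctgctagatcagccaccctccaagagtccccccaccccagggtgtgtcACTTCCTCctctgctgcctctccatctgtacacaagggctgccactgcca
S100a11 lies at chr3:93520246-93520545 on the plus strand, with AP-1 matches at -136 and -38.
S100a11: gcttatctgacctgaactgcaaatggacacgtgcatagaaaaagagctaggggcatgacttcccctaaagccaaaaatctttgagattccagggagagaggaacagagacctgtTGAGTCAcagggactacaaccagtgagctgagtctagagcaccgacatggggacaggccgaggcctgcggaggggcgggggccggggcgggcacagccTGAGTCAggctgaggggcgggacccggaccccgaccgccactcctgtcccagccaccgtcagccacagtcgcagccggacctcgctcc
Esr1 lies at chr10:4611739-4612038 on the plus strand, with a MEF2 match at -143.
Esr1: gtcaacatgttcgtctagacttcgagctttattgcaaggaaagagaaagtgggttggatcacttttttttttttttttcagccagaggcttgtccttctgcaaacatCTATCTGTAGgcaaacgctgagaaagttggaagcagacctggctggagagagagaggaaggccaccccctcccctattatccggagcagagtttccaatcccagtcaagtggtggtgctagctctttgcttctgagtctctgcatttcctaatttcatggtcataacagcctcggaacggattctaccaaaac
Adora3 lies at chr3:105904171-105904470 on the plus strand, with an AP-1 match at -98 and a PU.1 match at -30, read on the opposite strand.
Adora3: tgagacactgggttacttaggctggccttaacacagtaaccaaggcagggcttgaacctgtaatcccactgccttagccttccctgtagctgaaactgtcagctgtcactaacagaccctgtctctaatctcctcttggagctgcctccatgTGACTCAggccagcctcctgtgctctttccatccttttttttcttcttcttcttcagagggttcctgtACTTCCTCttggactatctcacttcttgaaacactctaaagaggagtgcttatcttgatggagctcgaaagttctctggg
P2ry10 and Esr1 have 2 promoters each in the table and 1 is shown. Adora3 carries both AP-1 and PU.1 letters although it was lower in CD11c cells.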

How the data were processed

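RNA-seq of sorted cells was deposited as 1 table of read counts per gene for the 16 libraries of the series. Per the labels' protocols, libraries were made with a stranded poly(A) kit. Per the submitters' processing notes, the authors used FastQC 0.11.5 and STAR 2.5.3a and the build GRCm38. No source used here names the counting tool, its strand setting or the annotation release. The deposited values are raw counts for 50600 genes, of which 29525 had a count and 50376 a record in GENCODE M21, the source of symbols, positions and exon lengths.

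From these, CPM were computed with TMM scaling, and genes were tested with edgeR 4.0.16 (R 4.3.3; low-count filter by filterByExpr, robust quasi-likelihood fit over all 16 libraries by group, contrast of the CD11c cells of ischemic brain with ischemic microglia, Benjamini-Hochberg adjustment over 16345 genes, threshold 0.05). The procedure was tested on simulated data. Replicates were numbered in accession order, which pairs nothing. Counts of replicate pairs differed beyond sampling noise, so all libraries were kept as separate replicates. In total 63 gene lists were written, and 2425 of their 2822 measured genes were tested; after the files were seen, 8 symbols that the table does not use were dropped and 1 was updated. The members and lists were chosen with earlier results of these data known. Named genes were list members, always with the called member of largest difference each way, the 12 largest and 12 most abundant called genes each way with at least 20 CPM and no overlap, the 10 most abundant genes of like level, and the reporter genes. Some genes that this rule names are not reported here. Reads of near-identical genes may have been split by the counting. Alternatives were DESeq2 1.42.0, limma-voom (limma 3.58.1), other scaling, no filter, fewer libraries, either pair of CD11c libraries alone and each library left out.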

Additional observations from a re-analysis of the deposited data

Results flagged for a closer look

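In 23 of 438 groups of 4 libraries, each the CPM of a named gene in 1 population, the highest or lowest library stood apart from the other 3 by most of the group's range (5.25%, where chance alone flags about 1 in 20 groups). Microglia replicate 2 was that library for 10 genes. It was at 714 CPM for Fcer1g, 2509.8 for Fcrls, 54.5 for H2-Ab1, 1389.7 for H2-D1, 35.2 for Itgax, 1.99 for Nlrc4, 648 for Siglech, 519 for Tgfbi, 2166.1 for Tnfaip3 and 10.6 for Vsig4. Microglia replicate 4 stood apart at 10319 CPM for Ctss, 395 for Nfkb1, 154 for Thbs1 and 0.0265 for Tnfsf11, replicate 3 at 154 CPM for Mki67 and replicate 1 at 0.802 CPM for Pparg.

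Among the CD11c libraries, replicate 4 stood apart at 278 CPM for Atox1, 143 for Clec12a and 11 for Tspan18. Replicate 3 did so at 246 CPM for Entpd1 and 15.9 for Gcsam, and replicate 2 at 0.028 CPM for Fasl and 185 for P2ry13.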

How the results depend on the processing

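Across the 16 alternatives the counts of genes higher, lower, at least 2-fold higher or lower and of like level stayed within 1.5 times their values. Leaving out each library in turn gave 2812 to 3289 higher, 2526 to 3341 lower, 1586 to 1835 at least 2-fold higher and 1094 to 1523 at least 2-fold lower genes. The other alternatives gave 2517 to 3964 higher and 2137 to 3685 lower. At least 2-fold differences were more often lower than higher with limma-voom (1539 against 1452) and with CD11c replicates 1 and 2 alone (1763 against 1611). Genes at least 16-fold apart with at least 20 CPM numbered 116 to 129 on the higher side and at most 1 on the lower. Of the 6343 calls 3746 (59.1%) held in every alternative that gave the gene an adjusted p. A gene that an alternative left out was not counted as lost there. Ly6d, Clec4g and Prf1, for example, were not tested with the libraries of the contrast alone. Of the 200 named genes with a call, 184 kept it in every alternative that gave them an adjusted p, and none changed direction. With CD11c replicates 1 and 2 alone 11 of the named calls were lost, and with replicates 3 and 4 alone 4 were lost. Fitting only the 8 libraries of the contrast lost 6, those of Ccr3, Psma8, Cd5l, March8, Cox6a2 and H2-Q6. Genes of like level were not counted with DESeq2 or limma-voom, which were run without that interval. No paired analysis was possible because the titles of the 2 groups share fewer than 2 numbers and the replicate numbers follow accession order. Setting genes at 0 in a group to their bound moved the median of 2 lists. At the lowest levels, a few counts decide the size of a difference.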

Other observations

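Several further groups were measured, beside shares over all tested genes of 19.7% higher and 19.1% lower. Semaphorins and their receptors, guidance proteins also used by immune cells, had 10 of 28 genes higher and 9 lower. Sema4f had 4.37, 4.71, 7.91 and 3.39 CPM in CD11c cells and 0.0752, 0, 0.0261 and 0.0529 in microglia, and Sema6c, the lowest member, differed by -1.89 ± 0.25. Sema7a (5.95 ± 0.34) and the receptor Plxnd1 (1.95 ± 0.21) were higher and the receptor Plxna4 (-1.74 ± 0.21) lower. Regulators of actin and tubulin had 16 of 50 higher and 7 lower, with 12 lower for CD11c replicates 3 and 4 alone. Vim (vimentin), an intermediate filament protein, had 1871, 1839.7, 1078 and 1194 CPM in CD11c cells and 147, 228, 186 and 199 CPM in microglia, with the members of largest change Cnn2 at 3.10 ± 0.21 and Rhob at -1.36 ± 0.17. NK cell markers had 4 of 20 higher and 4 lower, near those shares, and 2 lower without CD11c replicate 2 or microglia replicate 1 or 4. Klrk1 (NKG2D), an activating receptor, had 27.2, 40.4, 71.1 and 94.4 CPM against 0.426, 0.186, 0.288 and 0.847 in microglia, while Prf1 (perforin), listed at 0 in every CD11c library, had 1.25, 0.0531, 0 and 0.556 CPM in microglia, at least 21.6-fold lower with a floor of 3 counts over the group; its fitted difference went from -7.22 to -6.0 without microglia replicate 1. B cell markers had 11 of 19 higher and 5 lower, from Sdc1 (CD138) at 7.08 ± 0.76 to Bank1 at -1.94 ± 0.17.

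Genes of the immediate early and heat shock responses were more often lower, 9 of 30 against 3 higher, with 14 lower for CD11c replicates 1 and 2 alone and 8 for replicates 3 and 4 alone. Egr1 had 301, 185, 394 and 581 CPM in CD11c cells and 1442, 1257, 1285 and 643 CPM in microglia, Jun differed by -1.39 ± 0.30 and Fosl2, an AP-1 subunit, by 1.73 ± 0.21, with Nr4a2 the highest member. Oxidative stress genes had 11 of 30 higher and 4 lower, or 8 higher and 6 lower with CD11c replicates 3 and 4 alone and 2 lower without CD11c replicate 3. Prdx6, a peroxiredoxin, had 194, 185, 209.7 and 266 CPM against 51.3, 52.2, 49.8 and 53.2, and Slc40a1 (ferroportin), which exports iron, had 25.6, 39.4, 44.7 and 46.2 against 137, 117, 134 and 125 and was the lowest member, with the cystine carrier Slc7a11 the highest at 2.25 ± 0.42. Zinc finger genes listed by symbol had 39 of 347 higher and 82 lower, and solute carriers 44 of 234 higher and 55 lower.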
